A study of Mus musculus with 2 samples.

Results

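Long intergenic contigs are stretches of at least 1000 bases that were covered by RNA reads on 1 strand of the mouse genome and that touched no annotated gene. They were taken from the deposited list of contigs on the mm9 build, each contig being an unbroken run of read coverage on its strand. A contig was kept when it overlapped none of the 37310 gene spans of Ensembl release 65, on either strand. The rule left 14588 of the 816060 contigs, which is 1.79% of all contigs, 10.2% of the 143340 contigs of 1000 bases or more, and 5.9% of the 247075 contigs of any length that overlapped no gene. The choice used length and gene positions only. The level was not used, but a contig is a run of read coverage, so the minimum length also bears on coverage.

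Embryos of the mouse strain C57BL/6J at embryonic day 11.5 gave the RNA, which was taken from their central nervous system. It was polyadenylated RNA longer than 200 bases after removal of ribosomal RNA, sequenced as strand-specific read pairs. The 2 libraries are the biological replicates 1 and 2 of 1 group, each made from littermates of both sexes, and the labels name no genotype, treatment or dissection boundary. With 1 group there was no contrast, so no test between conditions exists and values are given as descriptions. The contig list pools both libraries. Replicate 1 held 120461126 and replicate 2 held 108007021 expected counts over genes on the mm10 build, and all 7 neural tissue markers checked were present, with Tubb3, a tubulin of neurons, at 882 and 720 TPM, and Dcx, a microtubule protein of migrating neurons, at 48.2 and 57.9 TPM in replicates 1 and 2. Of the progenitor markers, Nes, an intermediate filament, at 233 and 72.2 TPM, and Sox2, a transcription factor, at 91.5 and 56.3 TPM, differed more between the libraries. Fabp7, also a progenitor marker, did not, at 565 and 475 TPM.

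RNA outside annotated genes can have several origins that are known from other work. RNA polymerase runs on beyond the cleavage and polyadenylation site of a gene, and some genes use later poly(A) sites than the annotated one, so RNA downstream on the same strand is common. Many CpG-rich promoters also start a transcript on the other strand, pointing away from the gene. Long intergenic noncoding RNAs and the long precursors of microRNAs are transcribed between genes as well, and in the nervous system many of them lie beside genes of developmental transcription factors. Processed pseudogenes, which are copies of spliced messenger RNAs inserted into the genome, have sequences so close to their parent genes that reads can be placed on either.

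The sequences of the contigs themselves were not used here, so sequences are shown for named neighbours of 2 kinds of contig. The first are mature microRNAs from RefSeq (build GRCm38.p6) whose genes had a long intergenic contig within 10000 bases on their strand. They are grouped by seed, bases 2 to 8 counted from the 5′ end, which pairs with target RNAs and is in capitals. Some of these neighbours share a seed, and how common that is over all microRNA genes was not computed.
let-7i-5p: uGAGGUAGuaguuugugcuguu
let-7c-5p: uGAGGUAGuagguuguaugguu
let-7d-5p: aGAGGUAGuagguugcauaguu
miR-30c-5p: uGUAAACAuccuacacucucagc
miR-30a-5p: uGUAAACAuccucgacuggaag
miR-181a-5p: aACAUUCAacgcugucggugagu
miR-181b-5p: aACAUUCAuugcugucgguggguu
miR-1905: cACCAGUCccaccacgcgguag
miR-3093-3p: uGUGGACAccgugggagguugg

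The second kind are contigs that began just upstream of a gene and ran away from it on the other strand. Promoters are printed for the 3 protein-coding genes with the highest such contigs within 1000 bases, among genes with a single promoter in the table, from RefSeq (GRCm38.p6), from 250 bases before to 50 bases after the RefSeq start, in the direction of the gene. Every CG dinucleotide is in capitals, since CpG-rich promoters are the class known for transcription in both directions.
Mex3a: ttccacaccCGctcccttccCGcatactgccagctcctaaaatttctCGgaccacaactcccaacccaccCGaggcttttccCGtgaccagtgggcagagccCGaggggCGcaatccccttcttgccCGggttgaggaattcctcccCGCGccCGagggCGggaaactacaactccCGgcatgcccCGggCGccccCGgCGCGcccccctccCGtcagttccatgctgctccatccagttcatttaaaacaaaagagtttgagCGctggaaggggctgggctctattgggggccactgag
Qser1: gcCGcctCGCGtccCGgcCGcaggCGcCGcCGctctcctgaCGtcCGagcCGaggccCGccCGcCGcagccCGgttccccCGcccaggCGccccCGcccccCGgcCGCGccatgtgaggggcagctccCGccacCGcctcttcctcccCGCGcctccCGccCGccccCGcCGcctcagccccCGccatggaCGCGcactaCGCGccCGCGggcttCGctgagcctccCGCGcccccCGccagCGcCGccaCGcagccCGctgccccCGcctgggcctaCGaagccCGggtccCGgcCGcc
Med26: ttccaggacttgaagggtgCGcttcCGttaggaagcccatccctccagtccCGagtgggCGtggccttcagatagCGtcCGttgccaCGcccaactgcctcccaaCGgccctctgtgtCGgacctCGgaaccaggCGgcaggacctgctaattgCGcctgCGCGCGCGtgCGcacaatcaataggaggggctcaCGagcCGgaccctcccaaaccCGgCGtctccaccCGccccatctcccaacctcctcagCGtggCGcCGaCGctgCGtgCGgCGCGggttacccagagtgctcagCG
In GRCm38.p6 these windows lie at chr3:88531696-88531995 on the plus strand, chr2:104816647-104816946 on the minus strand and chr8:72548261-72548560 on the minus strand. They hold 20, 49 and 31 CG dinucleotides for Mex3a, Qser1 and Med26.

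Most long intergenic contigs were covered thinly. The deposited level of a contig is its mean coverage per base on a scale where 1 stands for 62.2 reads over each base, over both libraries together. The median level of the long intergenic contigs was 0.116, with quartiles of 0.08 and 0.183, which is a mean coverage of 7.22. Intergenic contigs under 1000 bases had a median level of 0.056 and long contigs that overlap a gene one of 0.184. The shorter set was split off by length, which rose with level, so its difference from the long intergenic contigs follows in part from the choice. A level of 1 or more was reached by 288 long intergenic contigs (1.97%), against 1.44% of the shorter intergenic contigs and 19.2% of the long contigs in genes. These 288 held 41.9% of all bases read in long intergenic contigs, and the 22 contigs with a level of at least 10 held 17.1%.

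**Figure D1:**
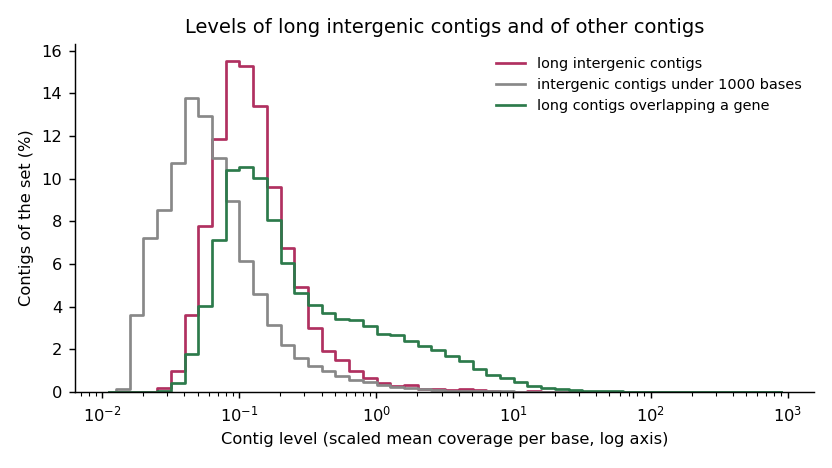
Share of contigs (y axis, %) by contig level (x axis, scaled mean coverage per base, log axis) for long intergenic contigs, intergenic contigs under 1000 bases and long contigs overlapping a gene. The long intergenic contigs peak near their median of 0.116 and lack the shoulder above 1 of the contigs in genes.

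Together the long intergenic contigs covered 30.9 megabases, 4.42% of the length of all contigs and 1.04% of all covered bases. They made up 35.2% of the length of all intergenic contigs. Their median length was 1535 bases, 725 were at least 5000 bases long and 142 at least 10000. Level and length rose together over the contigs, with a Spearman rho of 0.486 (n = 14588, 1 pooled contig list); the median level was 0.091 at 1000 to 1500 bases and 0.445 at 10000 bases and more. The 230 intergenic contigs in the 10 lengths from 1000 bases up had a median level of 0.082, and the 262 contigs in the 10 lengths just below 1000 bases one of 0.083. By strand, 7396 lay on the plus and 7192 on the minus strand. The deposited list also holds an unnamed score between 0 and 0.63 for each contig, and it was 0 for 84.8% of the long intergenic contigs, 3.48% of the shorter intergenic contigs and 92.1% of the long contigs in genes.

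Over the long intergenic contigs, the median distance to the nearest gene end was 7084 bases, 15.1% lay within 1000 bases and 57.2% within 10000 bases. For the shorter intergenic contigs the same shares were 8.04% and 40.5%, and their median distance was 15869 bases. At the far end, 1315 long intergenic contigs were more than 100000 bases from any Ensembl 65 gene. The median depended on the setting: it was 18334 bases to the nearest gene of 1 RPKM or more, which the nearest gene was for 52.0% of the contigs, 13658 bases with contigs within 1000 bases joined, and 4174 bases without gaps that hold 10 or more contigs on a strand. The nearest gene was protein-coding in GENCODE M21, a later annotation, for 69.4% of the contigs, a processed pseudogene for 5.34% and a microRNA gene for 2.08%.

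The largest class lay downstream of the nearest gene on its strand. Of the 14588 contigs, 6195 (42.5%) lay downstream of the nearest gene on its strand, 3466 (23.8%) upstream on the other strand, 3035 (20.8%) upstream on the same strand and 1892 downstream on the other strand. The shorter intergenic contigs were spread more evenly, with 31.5% downstream on the same strand and 20.5% downstream on the other strand. The 42.5% depended on how coverage breaks into contigs. It was 39.1% with contigs of a strand within 100 bases joined and 30.2% with those within 1000 bases joined. Of the long contigs downstream on the same strand, 47.4% were within 5000 bases of the gene. The share was 48.8% upstream on the other strand, 38.3% downstream on the other strand and 26.6% upstream on the same strand.

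**Figure D2:**
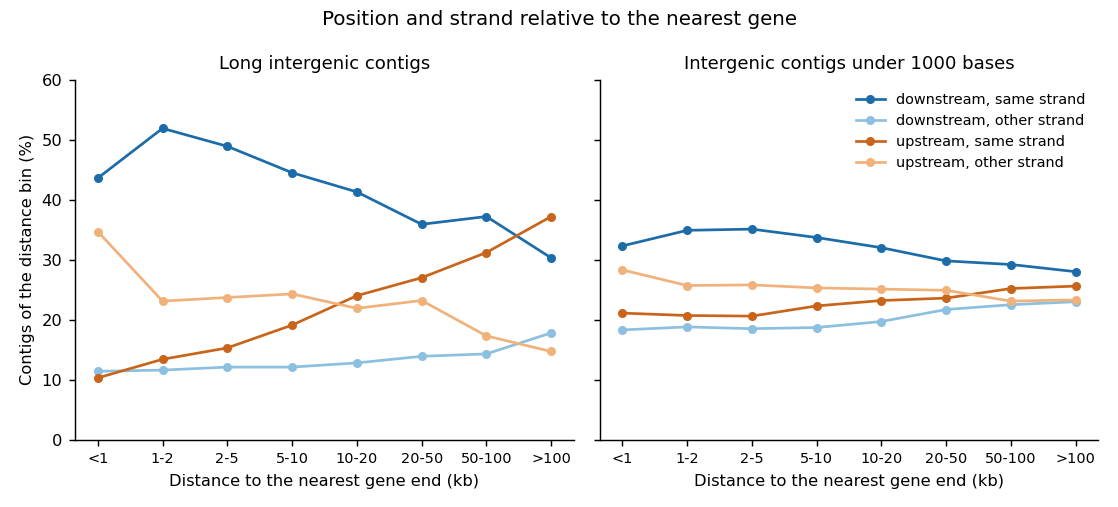
Share of contigs (y axis, % of the distance bin) by position and strand relative to the nearest gene, over bins of distance to the nearest gene end (x axis, kb), for long intergenic contigs on the left and intergenic contigs under 1000 bases on the right. Among the long contigs the downstream same-strand share is highest at 1 to 2 kb (51.9%) and the upstream other-strand share below 1 kb (34.7%).

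The mix differed with distance. Within 1000 bases of a gene, 43.6% of the long intergenic contigs were downstream on the same strand and 34.7% upstream on the other strand, which is the divergent arrangement. Between 1000 and 2000 bases the downstream same-strand share was 51.9% and the upstream other-strand share 23.1%. Beyond 100000 bases, upstream contigs on the strand of the gene made up 37.2% (489 contigs) and downstream contigs on that strand 30.3% (399). Upstream contigs on the other strand were the least frequent there at 14.7%. Robo1 alone had 97 of the 489 and Rbfox1 50, and without the Robo1 contigs, a split chosen after seeing the data, the order turned, with 392 upstream and 399 downstream. Median levels differed little between classes, with 0.114 downstream on the same strand, 0.12 downstream on the other strand, 0.117 upstream on the same strand and 0.116 upstream on the other strand. In the first 1000 bases the divergent contigs had a median level of 0.143, against 0.114 for the downstream same-strand contigs there.

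The neighbours of the upstream other-strand and of the downstream same-strand contigs were the more expressed ones. The nearest gene of contigs upstream on the other strand had a median of 1.83 RPKM. RPKM stands for reads per length and per total of mapped reads, here the mean of the 2 deposited mm9 values. The median was 1.62 RPKM for contigs downstream on the same strand. It was 0.564 RPKM for contigs upstream on the same strand and 0.101 RPKM for those downstream on the other strand. The shorter intergenic contigs showed the same split, with 0.42 RPKM upstream on the other strand and 0.533 RPKM downstream on the same strand. Their other classes had 0.156 RPKM upstream on the same strand and 0.0546 RPKM downstream on the other strand. The level of a contig hardly followed that of its neighbour. Across the long contigs of a class the Spearman rho between contig level and gene RPKM lay between -0.04 and 0.08. For the shorter intergenic contigs it lay between -0.04 and -0.03. Both are descriptions over contigs that share both libraries. Among the 37310 genes of Ensembl 65, 15.3% were the nearest gene of at least 1 long intergenic contig, and among the 10878 genes with a mean of 1 RPKM or more the share was 29.7%.

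Splice junctions tied some of these contigs to other exons. A junction read on the same strand had an end in 6951 contigs (47.6%), and 1667 contigs (11.4%) had 10 or more such reads over both libraries. By comparison, 24.3% of the shorter intergenic contigs and 62.6% of the long contigs in genes had a junction. The shorter contigs, with a median length of 194 bases, offer less room for a junction end. The share of 47.6% itself depended on length, with 31.3% at a minimum of 500 bases and 66.2% at 2000 bases. The first replicate of the junction list gave 107316 reads at long intergenic contigs and the second 84322, which is 0.149% and 0.146% of the junction reads of each. Both replicates supplied junction reads at 3121 contigs. The junction reached into the nearest gene on the same strand for 827 contigs, 565 of them downstream of the gene and 262 upstream, and 139 of the 827 had 10 reads or more. With any gene on the same strand counted, nearest or not, 2351 contigs (16.1%) had a junction into a gene span. The same share was not computed for other contigs.

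Spans of models assembled from the reads, introns included, overlapped most of the contigs, and an exon of a model overlapped 70.3% of them. An assembled model on the same strand overlapped 11733 contigs (80.4%), against 36.6% of the shorter intergenic contigs and 87.5% of the long contigs in genes. Shorter contigs offer fewer bases to overlap, and the part of length in this difference was not tested. For 3168 contigs (21.7%) the model with the largest overlap also overlapped an Ensembl 65 gene on its strand. There the span of the model reached over both, which need not mean a shared exon or junction. That span reached the nearest gene for 22.6% of the contigs downstream on the same strand and 33.4% of those upstream on the same strand. In all 11002 models lay over long intergenic contigs, and 44.3% of them had more than 1 exon. Of these, 9754 overlapped no gene on their strand, and their median mean RPKM was 0.0314. The 2 deposited values of a model were within 2-fold for 96.9% of these 9754 models on the log2(RPKM + 0.1) scale, against 92.0% of all assembled models. Most values of the 9754 lie near the pseudocount on that scale. The ranks of their 2 values correlated with a Spearman rho of 0.467 over models. Only 47 of the 9754 had a mean of 1 RPKM or more.

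A contig on the other strand overlapped 4294 of the long intergenic contigs (29.4%), against 23.6% of the shorter intergenic contigs and 31.4% of the long contigs in genes. That opposite contig was at least 10 times higher for 286 of them, while 249 were at least 10 times above their opposite contig. Whether reads placed on the wrong strand contribute to the 286 was not tested, nor was the part of contig length in the 29.4% and 23.6%.

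Many contigs formed long runs on 1 strand of a gap between genes. The contigs filled 5813 gaps, each counted per strand, of which 3274 held a single contig and 168 held 10 or more. Those 168 held 3746 contigs (25.7% of all). Of the 168, 120 had no long intergenic contig on the other strand of the same gap, and 4 had 10 or more on both strands. How often the other strand is empty over all 5813 gaps was not computed, so the 120 have no background. Contigs in these gaps lay at a median of 49583 bases from a gene, against 1489 bases for contigs that were alone in their gap, and had a median level of 0.12, against 0.105.

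**Figure D3:**
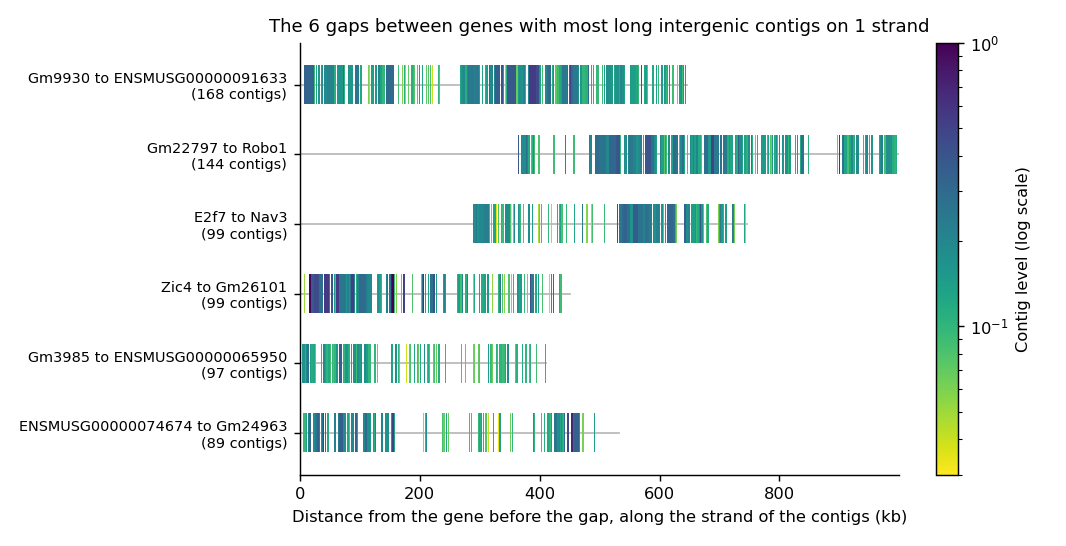
The 6 gaps with most long intergenic contigs on 1 strand, drawn to scale from the gene before the gap along the strand of the contigs (x axis, kb), with contigs as blocks coloured by level (log scale) and the gap as a grey line. Runs of contigs extend over long stretches of a gap, with 168 contigs in the fullest gap.

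The fullest gap lay on chromosome 10. Between ENSMUSG00000091633 and Gm9930, 168 contigs stood on the minus strand over chr10:8608739-9245878 and covered 67.4% of the 645650 bases between the genes. Their levels ran between 0.041 and 0.542 with a median of 0.138, and no long intergenic contig stood on the plus strand there. Junctions touched 55 of them with 100 reads in the first and 87 in the second replicate. Gm9930, which begins this stretch in the direction of the contigs, had 0.0567 and 0.0815 RPKM in the first and second value.

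Robo1, the receptor for Slit guidance cues on growing axons, was the gene with most long intergenic contigs beside it. It was the nearest gene of 127 contigs, 125 of them upstream of its annotated start on its own strand, out to 488643 bases. Whether later annotations place that start farther upstream, so that these contigs would lie within the gene, was not tested. In the gap before Robo1, 144 contigs covered 39.2% of 999230 bases at levels between 0.054 and 0.609, with 1 contig on the other strand. Junctions from 11 of the contigs reached into the Robo1 span, with 184 reads in the first and 79 in the second replicate. Robo1 itself had 4.44 and 4.35 RPKM. The highest of its contigs, chr16:72563462-72566113, had a level of 0.609 and 274 and 117 junction reads.

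Nav3, a microtubule-binding neuron navigator, showed the same arrangement. All of its 74 contigs lay upstream on its strand, out to 361757 bases, at levels between 0.037 and 0.393. Of these, 6 had junctions into Nav3 with 27 and 23 reads. The gap held 99 contigs on that strand over 454362 bases, as those nearer to E2f7 at its other end were not counted for Nav3. Nav3 had 0.516 and 0.438 RPKM. Rbfox1, a neuronal splicing regulator, had 51 contigs upstream on its strand, between 68804 and 734845 bases away, of 72 on that strand in the gap. The 51 had a median level of 0.082, and none had a junction read into Rbfox1. Rbfox1 had 0.427 and 0.796 RPKM. Whether Nav3 or Rbfox1 starts farther upstream in later annotations was not tested either. The other genes with most contigs were the ones that flank the chromosome 10 gap, with 99 beside ENSMUSG00000091633 and 80 beside Gm9930, and ENSMUSG00000065950 on chromosome 8. The last had 73 contigs on its strand, 32 of them downstream and 41 upstream, and it had 23.9 and 7.82 RPKM in the first and second value.

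Contigs beside transcription factor genes of the developing nervous system were concentrated downstream of a few genes. Of 72 listed genes, 70 were in the Ensembl 65 table, 63 of them at a mean of 1 RPKM or more, and 40 of the 70 (57.1%) were the nearest gene of at least 1 long intergenic contig. The share over all genes was 15.3% and over genes of 1 RPKM or more 29.7%. Genes beside wide gaps can hold more contigs, and the part of gap width in these shares was not tested. The 40 genes had 345 contigs with a median level of 0.142, against 0.116 over all long intergenic contigs. Of the 345, 232 lay downstream on the same strand, 76 upstream on the other strand, 20 upstream on the same strand and 17 downstream on the other strand. The downstream same-strand share was 67.2%, against 42.5% over all long intergenic contigs, but 6 genes (Zic4, En1, Pou4f1, Zic1, Sox11 and Nr2f2) held 185 of the 232. Counted by gene, 25 had a contig downstream on the same strand and 24 one upstream on the other strand.

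Zic4 and Zic1, zinc-finger factors of the dorsal neural tube that are transcribed away from each other, had runs on both outer sides. Zic4 was the nearest gene of 53 contigs, all downstream on its strand, out to 222721 bases. Their levels lay between 0.051 and 1.05 with a median of 0.223, and Zic4 had a mean of 6.38 RPKM. The run went on past the middle of the gap, with 99 contigs over 430603 bases in all. Of these, 46 were nearer to the small nuclear RNA gene Gm26101 at the other end. Zic1 had 33 contigs, 31 of them downstream on its strand, with levels between 0.05 and 1.0, and the gene had a mean of 19.7 RPKM. Junctions into the gene were few, with 7 and 1 reads for Zic4 and 5 and 8 reads for Zic1 in the first and second replicate. En1, a homeobox factor of the midbrain and hindbrain, had 35 contigs, 33 of them downstream on its strand, and the highest, chr1:122578219-122585361, lay 72345 bases away at a level of 1.91 with 175 and 106 junction reads. En1 itself had a mean of 1.21 RPKM, on a scale that need not share its total with the contig level. Pou4f1, a POU factor of sensory neurons, had 33 contigs, all downstream on its strand, with a highest level of 0.26, and Nr2f2, an orphan nuclear receptor, had 29, of which 17 were downstream on its strand and 10 had junctions into the gene.

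Several other listed factors had contigs upstream on the other strand. All 17 contigs of Pou3f4, a POU factor on the X chromosome, lay upstream on the other strand, with a highest level of 0.407. Lhx5, a LIM-homeobox factor, had 2 contigs upstream on the other strand at levels of 2.53 and 2.79, and the gene had a mean of 2.33 RPKM. The higher of them, chr5:120878172-120881766, lay 128 bases from Lhx5 and carried 102 and 189 junction reads, and the M21 long noncoding gene Gm42654 lies between the same neighbours on its strand. The highest contig beside Irx2, an Iroquois factor, was 7813 bases long, lay 1795 bases upstream on the other strand and had a level of 1.24 with 66 and 60 junction reads. Otx2, a factor of the forebrain and midbrain, had 6 contigs, 4 of them upstream on the other strand, with a highest level of 0.484. That contig overlapped one on the other strand at a level of 7.26, and the part of wrong-strand reads in it was not tested. Pou3f3, a POU factor of the cortex, had 7 of its 14 contigs downstream on the same strand and 4 upstream on the other strand. It also had the highest contig of all listed genes, chr1:42763906-42771481, at a level of 3.53 with 367 and 185 junction reads; it lay 6853 bases downstream on the other strand. The M21 noncoding gene Pantr2 lies between the same neighbours on that strand and had 17.2 and 13.7 TPM in replicates 1 and 2.

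**Figure D4:**
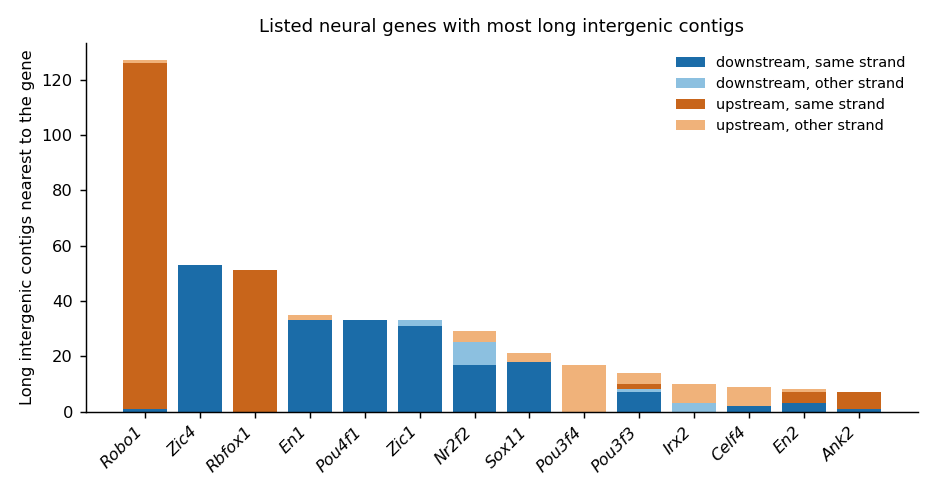
Number of long intergenic contigs nearest to each gene (y axis) for the 14 listed genes with most contigs (x axis), split by position and strand relative to the gene. Robo1 and Rbfox1 have nearly all of their contigs upstream on the same strand, while Zic4, En1, Pou4f1 and Zic1 have them downstream on the same strand.

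Among genes of neurons, axon guidance and adhesion, 37 of 252 contigs lay downstream on the same strand. Of 56 listed genes, 55 were matched, 44 at 1 RPKM or more, and 27 (49.1%) were nearest to at least 1 long intergenic contig, against 29.7% of all genes of 1 RPKM or more. The 252 contigs had a median level of 0.124. Upstream contigs on the same strand made up 185 of them, with 125 beside Robo1 and 51 beside Rbfox1. Elavl2, an RNA-binding protein of neurons, had 4 contigs downstream on its strand, the highest 27528 bases long at a level of 0.971 with 180 and 62 junction reads. Pcdh9, a protocadherin, had 1 contig, 489 bases upstream on its strand, at a level of 1.13 with 32 and 54 junction reads, of which 4 and 1 reached into Pcdh9. The highly expressed genes Stmn1 (58.7 RPKM) and Gap43 (32.8 RPKM), both of growing axons, had contigs at levels of 0.044 and at most 0.049. Stmn2 (22.5 RPKM) had a contig at 0.114 and Crmp1 (20.2 RPKM) one at 0.225.

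Contigs upstream on the other strand lay at a median of 5272 bases over the whole class of 3466. The 762 of them within 1000 bases of a gene are described here; 372 of these were nearer than 200 bases. Their median length was 1617 bases and the nearest gene had a median of 2.79 RPKM. For protein-coding neighbours there were 673 such contigs beside 673 genes, and 434 of the genes had a single promoter in the RefSeq table. Those promoters held a median of 26 CG dinucleotides in 300 bases, against 23 for the 6143 protein-coding genes of 1 RPKM or more and 7 for all 22862 genes with a single promoter. The letters TATAAA on either strand were in 6.68% of the 434, against 6.14% of the 6143 and 14.8% of all. The promoters printed above belong to the 3 genes of this set with the highest contigs. Mex3a, an RNA-binding protein, had a contig of 10266 bases, chr3:88325861-88336126, beginning 190 bases away at a level of 3.65, with an overlapping contig on the other strand at 20.5. The contig beside Qser1 had a level of 2.45 and that beside Med26, a subunit of Mediator, one of 2.43, and they began 154 and 100 bases from the genes. Junction reads were 18 and 16 at the Mex3a contig, 10 and 5 at the Qser1 contig and 99 and 117 at the Med26 contig. The genes had a mean of 9.55 RPKM (Mex3a), 2.21 RPKM (Qser1) and 1.68 RPKM (Med26).

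Some microRNA genes had long intergenic contigs close by on their strand. Within 10000 bases and on the same strand, 187 long intergenic contigs lay beside 96 of the 1081 microRNA genes, 112 of them downstream and 75 upstream, at a median level of 0.121, each contig counted for its nearest microRNA gene. Counting every gene with any such contig gave 104 of 1081 microRNA genes (9.62%), against 12.8% of all Ensembl 65 genes, so the microRNA share was not above that of all genes. RefSeq gave mature sequences for 61 of the 96 genes, and 18 genes shared a seed with another of them. Some of the 18 carry the same mature sequence at separate loci, such as Mir365-1 and Mir365-2. The share over all microRNA genes was not computed, so the 18 have no background to be read against. Mirlet7i, whose let-7i-5p carries the seed shown above, had 3 contigs on its strand, and the highest, chr10:122416213-122419446, lay 3249 bases downstream at a level of 1.87. Let-7 microRNAs are known to rise as neural progenitors differentiate. Mirlet7c-1 had a contig of 13091 bases at a level of 0.353, 4920 bases downstream. Mir30c-2 had 5 contigs, the highest of them, chr1:23298626-23300547, starting 2 bases past the annotated hairpin at a level of 2.93, and Mir30a on the same strand of chromosome 1 had 6 with a highest level of 0.202. A contig of 11603 bases at a level of 0.457 ended 947 bases before Mir181a-1, and another at 0.278 began 3709 bases past its neighbour Mir181b-1. Mir1905 lay 4096 bases from the Mex3a contig, Mir3093 7459 bases from a contig at a level of 2.68, and the microRNA gene Gm23873 154 bases from one at 2.14 that held 347 and 217 junction reads. The libraries hold RNA longer than 200 bases, so mature microRNAs themselves were not measured.

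The 22 contigs with a level of at least 10 lay mostly in gaps with later processed pseudogenes. In M21, a later annotation on mm10, genes with identifiers absent from Ensembl 65 were sought between the same 2 flanking genes on the strand of the contig. Both flanking genes were found in order for 11120 contigs, and 3744 of these (33.7%) had at least 1 later gene; 16.7% had a long intergenic RNA gene and 13.4% a processed pseudogene. Of the 202 placed contigs with a level of at least 1, 72 (35.6%) had a later processed pseudogene, and so had 14 of the 16 placed contigs with a level of at least 10. Positions within the gap were not compared, since the builds differ. Longer spans of genes already in Ensembl 65 were not sought. All 22 contigs had junction reads. Their median length was 1384 bases and their median distance to a gene 24660 bases. The sources used here do not give how reads that match several sites were placed, so the levels of these contigs are uncertain, and the part of such reads in them was not tested.

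**Figure D5:**
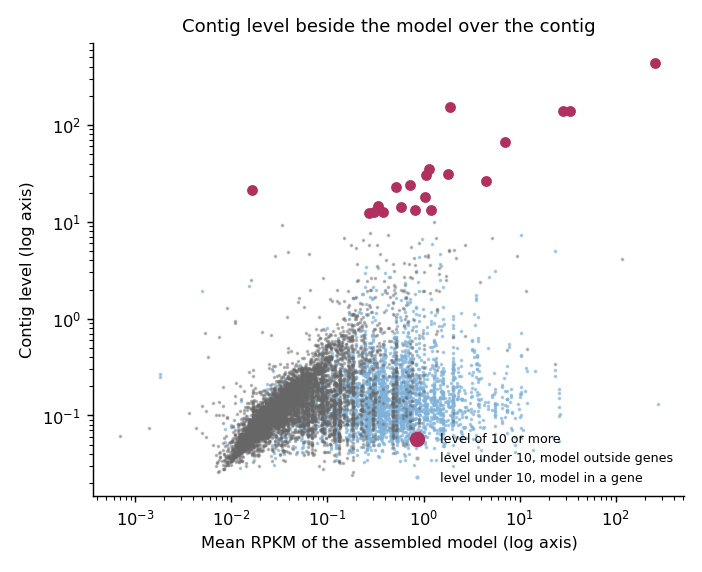
Contig level (y axis, log) against the mean RPKM of the assembled model over at least 50% of the contig (x axis, log), with contigs of level 10 or more as large points and the rest split by whether the model also overlaps a gene. The large points, chosen for their level, spread over a wide range of model RPKM, and the contigs whose model overlaps a gene reach to the right at low levels.

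Contig level was set beside the mean RPKM of the assembled model over at least 50% of the contig. The bins below were made on the level, which is also the numerator of the ratio, so a higher ratio in a higher bin follows in part from the choice. The level was a median of 26.6 times the RPKM for 20 contigs with a level of at least 10, 4.3 times for 216 contigs with levels of 1 to 10 and 3.21 times for 10886 contigs below 1. Where the model lay outside genes the medians were 24.4, 5.21 and 3.55 in the same order. Where the model also overlapped a gene, so that its value may include exons of that gene, they were 33.0, 2.92 and 0.33. The totals behind the 2 scales are not known to be the same, so a ratio of 1 has no meaning here.

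The highest contig of all was chr3:124088427-124089628 on the plus strand, at a level of 434, which is a mean coverage of 27008 over both libraries. It was 1202 bases long and lay 14279 bases downstream of 1700006A11Rik on the other strand; that gene was listed at 0 RPKM. Its model, which also overlaps a gene on its strand, had 230 and 283 RPKM in the first and second value. The M21 processed pseudogene Gm4617 lies between the same neighbours and had 112 and 27.4 TPM in replicates 1 and 2. The contig was touched by 359 junctions with 4059 and 1768 reads, and 319 of the junctions had both ends inside it; the busiest, with 2301 reads, skipped 94 bases.

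The next 3 contigs were at levels of 154, 141 and 139. The first, chr10:56217054-56218087, lay 106828 bases downstream of Gja1, a connexin of gap junctions, on its strand, and its model had 2.66 and 1.08 RPKM; the processed pseudogene Gm9118 and the long noncoding gene Gm36595 lie in that gap in M21. The second, chrX:61750141-61751408, lay 308 bases from the small nucleolar RNA gene Gm24598, and its model had 24.7 and 31.6 RPKM. The third, chr7:123967914-123969509, was 126593 bases from the small nuclear RNA gene Gm26054 with a model at 29.1 and 37.3 RPKM, and the processed pseudogenes Gm6008 and Gm4366 lie in the gap. In these 3 the junction reads were few for the level, between 10 and 50 in a replicate.

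The lower ones of the highest contigs, and the highest of each class, lay beside a range of genes. A contig at 66.4, chr1:144989844-144991223, was 454703 bases downstream of Cdc73, a subunit of an elongation complex, and the processed pseudogenes Gm18183 and Gm5835 lie in that gap. The contig at 53.3 lay 10365 bases from the small nucleolar RNA gene Gm22210 on chromosome 18, and its model had 2.86 RPKM in the first value and 11 in the second. Upstream on the other strand the highest was chr12:11888408-11889513 at 35.5, 130915 bases from the small nucleolar RNA gene Gm25610. Next were chr3:49185181-49186611 at 30.8, 108661 bases from Gm22480, and chr6:47382031-47383146 at 13.1, 20250 bases from Cul1, a scaffold of ubiquitin ligases. Upstream on the same strand the highest were chr1:130416496-130418092 at 24.0, 4699 bases from Gm25384, chr13:91400707-91402314 at 22.9, 37114 bases from Atg10, an autophagy enzyme, and chr17:80332784-80333945 at 14.3, 37320 bases from Atl2, a protein that shapes the endoplasmic reticulum. A contig at 31.3, chr2:156214113-156216937, lay 1154 bases from the pseudogene Rpl21-ps9 and one at 26.7, chr5:147386409-147387797, 5929 bases from Gpr12, both downstream on the other strand. Each of these contigs was more than 1000 bases from its nearest gene.

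The 3 contigs with most junction reads had levels of 4.42, 6.85 and 5.79, though the contig with the highest level, with 4059 and 1768 reads, came close to them. The most reads were at chr13:74666365-74667796, a contig of 1432 bases at a level of 4.42, 45973 bases upstream of Zfp825 on its strand, with 6062 and 3397 reads in the first and second replicate. They were spread over 2201 junctions, 61.3% of which had 1 read, and 983 had both ends in the contig. A contig of 1019 bases at a level of 6.85 beside Aadac, chr3:59848973-59849991, had 885 junctions with 5374 and 3102 reads. The other arrangement was seen at chr12:103206306-103208882, a contig of 2577 bases at a level of 5.79, 5301 bases upstream of Cpsf2, a subunit of the cleavage and polyadenylation complex, on the other strand. Its 13 junctions carried 1887 and 4093 reads, and its model had 1.92 and 3.49 RPKM, and the second value was the higher one in both measures.

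The longest contigs were well above the median level. The longest, chr7:46800693-46836033, had 35341 bases at a level of 1.96 and lay 4902 bases downstream of Zfp619, a zinc-finger gene, on its strand. It held 834 and 600 junction reads, of which 1 in each replicate reached into Zfp619, and the gene had a mean of 0.317 RPKM. Another 3 of the 5 longest stood in 1 gap on chromosome 7 on the plus strand: chr7:56240640-56273849 at 0.813, 98661 bases downstream of the noncoding gene Gm2788, and chr7:56318014-56351283 at 0.49 and chr7:56413471-56445389 at 0.288, both upstream of Nav2, a relative of Nav3. Their levels were lower the nearer they were to Nav2, which had a mean of 1.06 RPKM. Their junction reads were between 3 and 14 in a replicate. Whether Nav2 starts farther upstream in later annotations was not tested.

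The fifth, chr6:134878957-134909933, had 30977 bases at a level of 1.52 and lay 3425 bases downstream of Cdkn1b, an inhibitor of the cell cycle. It held 78 junctions with 2327 and 728 reads, of which 1 and 0 reached into Cdkn1b. Lockd, a long noncoding RNA gene known to lie downstream of Cdkn1b, is the later M21 gene between the same neighbours, and it had 188 and 84.1 TPM from 4267 and 1566 expected counts in replicates 1 and 2. Cdkn1b had a mean of 4.21 RPKM. An overlapping contig on the other strand had a level of 7.46.

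Of the 5 contigs farthest from any gene, 1 lay on chromosome 7 and 4 stood together on chromosome 18. The farthest, chr7:101508471-101509897, was 810476 bases from Gm23884, had a level of 0.05 and no junction read. The 4 on chromosome 18, between chr18:19090874-19092399 and chr18:19102141-19103192 on the minus strand, were 762401 to 773194 bases from Gm25392 at levels between 0.077 and 0.26. Their junction reads were 11 and 1, 23 and 3, 0 and 0, and 1 and 1 in the first and second replicate, and the M21 long noncoding gene AC127588.1 lies in that gap with pseudogenes.

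Across the chromosomes the share of long intergenic contigs among all contigs was between 1.35% on chromosome 2 and 2.53% on chromosome 16, which holds Robo1 and Rbfox1. Median levels per chromosome lay between 0.105 and 0.127. Chromosome 16 also had the largest median distance to a gene, 30248 bases, against 2814 bases on chromosome 11.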

How the data were processed

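Polyadenylated RNA of 2 libraries, biological replicates 1 and 2 of 1 group per the labels, had been processed by the authors. The deposited contig list (mm9, both libraries pooled, no header) gives a level, which is a scaled coverage signal, the covered bases and an unnamed score. The level scale was checked: covered bases divided by length and level were between 61.9 and 62.5 over 46637 contigs. The deposited mm9 gene tables give 2 RPKM values per gene, for Ensembl 65 genes and for Cufflinks models per the file headers. Which of them belongs to replicate 1 is not labelled, and the same holds for the junction list. The junction list gives a deposited read count per replicate. The mm10 tables give the authors' expected count and TPM per gene. The sources used here do not give the aligner or the contig caller.

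Contigs were placed beside genes with Python 3.11.15, pandas 2.3.3 and bedtools 2.31.1, tested on simulated contigs. Each gene is listed in 2 rows and was used once. Distance is the gap in bases between contig and nearest gene span. RPKM ratios used a pseudocount of 0.1. Symbols matched 32620 of 37310 genes. Named are the 10 highest, 5 longest and 5 farthest contigs, the 3 highest per class, the 3 with most junction reads, the highest beside listed genes and the 5 highest near microRNA genes; GENCODE M21 stands in for RefSeq as the source of later genes. Other listed genes and microRNAs were picked from these with their values known. Members and lists were chosen with earlier results of these data known. No test was run: contigs are not replicates. Alternatives are given at the end.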

Additional observations from a re-analysis of the deposited data

How the results depend on the processing

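Values rest on 1 pooled contig list of 2 libraries, so contig levels have no replicate error, and thin contigs break where coverage lapses. No paired analysis was possible because there is 1 group and no test. Under the alternatives, 67 recomputed values moved and 25 did not. Counts of contigs were held to 1.5 times the main count and other values to the 95% interval of the main value. Those intervals treat contigs, models or bases as independent, so they measure no spread between libraries. They are narrow, so a small change already counts as moved, and the label is not a test. Causes of the moves were not tested beyond each setting's own construction. The main values were 14588 contigs, a median level of 0.116, a median distance of 7084 bases, 42.5% downstream on the same strand, 80.4% with a model, 47.6% with a junction and 4.42% of all contig bases. In the same order, a 500-base minimum gave 42990, 0.078, 7584, 41.5%, 75.8%, 31.3% and 7.2%. A 2000-base minimum gave 4604 contigs, a level of 0.177, a distance of 7545, 66.2% with a junction and 2.48% of bases. Joining contigs within 100 bases gave 14378 contigs, a level of 0.0867, a distance of 8518, 39.1% downstream, 84.8% with a model, 50.1% with a junction and 5.06% of bases. Joining within 1000 bases gave 15976, 0.0589, 13658, 30.2%, 65.8%, 58.2% and 6.49%. Gene overlap on the same strand only gave 19105, 0.12, 7645, 43.9%, 70.8%, 50.5% and 5.96%. Widened gene spans gave 12392 contigs, a distance of 10134, 84.1% with a model and 3.77% of bases. Adding spans of only those assembled models with more than 1 exon or in a gene left 5577 contigs at 0.102, 4914, 43.7%, 60.4%, 42.4% and 1.48%. The 288 contigs of level 1 or more gave 1.93, 7896, 38.2%, 87.2%, 93.8% and 0.169%. Among genes of 1 RPKM or more as neighbours, the distance was 18334, the downstream share 37.7% and the neighbour's median 3.9 RPKM, against 1.14 for all genes. A model over at least 50% of the contig was found for 76.2%, with a median of 0.0295 RPKM against 0.0345. A junction with 10 reads or more touched 7.66%, and one with both ends in or near the contig 14.7%. Leaving out either model value gave medians between 0.0309 and 0.0356 RPKM. The median log2 ratio of the second to the first model value was 0.08, against 0.01 with a pseudocount of 1 and 0.1 for models of 0.5 RPKM or more. Chosen after seeing the data were the next settings. A model exon overlapped 70.3%. Leaving out either replicate's junction reads gave 34.0% to 35.0%. Protein-coding neighbours gave 10108 bases, 38.6% downstream and 2.18 RPKM. Leaving out gaps with 10 or more contigs on a strand gave 4174 bases and 44.9%. Leaving out either gene value gave 1.07 to 1.16 RPKM. Restriction to named chromosomes kept all 14588 contigs and restriction to low scores kept 14586, so neither could move a value by much. None of their values moved past these limits, and they are among the 25 that did not move.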
